A study of Homo sapiens with 6 samples.

Results

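The SR protein genes (symbols starting with SRSF) and the HNRNP genes, which encode the 2 large groups of splicing regulators, were followed in K562 cells with and without hyperoside. Members were taken by symbol, as every gene listed as protein coding whose symbol starts with SRSF or HNRNP, without regard to its values. This gave 34 genes, 11 SRSF and 23 HNRNP, of the 24960 genes in the count table. K562 is an established chronic myeloid leukemia (CML) line that carries the BCR-ABL1 fusion and grows in suspension. The groups compared were 3 control libraries of K562 cells and 3 libraries of K562 cells from the hyperoside group, at 2 mM by the study's description. Hyperoside is a plant flavonol glycoside, a galactoside of quercetin. All 6 libraries came from the same line, the labels name no genetic change in either group, and the time of treatment before RNA extraction is not given in the sources used here.

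SR proteins bind RNA through recognition motifs and carry a tail rich in arginine and serine repeats. They are known for binding exonic enhancers and helping U1 and U2 small nuclear ribonucleoproteins (snRNPs) to find nearby splice sites, and kinases of the SRPK and CLK families control them by phosphorylating the tail. The hnRNPs coat nascent transcripts, and many of them bind silencers and oppose exon inclusion, so that the relative amounts of SR proteins and hnRNPs are a known determinant of splice site choice. Many genes of both groups also make transcripts with a so-called poison exon or a similar retained element, which are degraded by nonsense-mediated decay. Counts per gene do not separate such transcripts from those that encode protein.

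The libraries held between 35613283 and 36754725 counts on genes. The 34 genes took 1.22% to 1.38% of the counts of a library. Levels between groups are given as normalized CPM, the counts scaled to a library's TMM-normalized total, and levels between genes as FPKM, which are scaled to gene length as well. Markers of the line were present, with the summed level of 7 erythroid and K562 markers at 5289 to 6554 FPKM in control libraries and at 3960 to 4723 FPKM in hyperoside libraries. The summed level of 7 markers of other cell types was 53.3 to 54.8 FPKM in control and 56.0 to 59.7 FPKM in hyperoside libraries, most of it from the epithelial gene EPCAM at 48.7 to 53.0 FPKM. Within that list the endothelial and megakaryocytic gene PECAM1 rose, from 327 to 372 counts in a control library to 969 to 1111 in a hyperoside library (log2 fold change 1.52, edgeR adjusted p = 8.39e-09), and the fibroblast gene COL1A1 fell (-0.99, edgeR adjusted p = 0.00711) at no more than 0.509 FPKM. The tissue label of the samples is bone. The osteoblast markers BGLAP and RUNX2 had 0 to 7 and 133 to 244 counts in a library, RUNX2 at 0.618 to 1.17 FPKM. The part of these marker differences in the results was not tested. In bulk RNA, fewer cells of a kind and less RNA per cell cannot be told apart. Nothing in the labels says that replicates were separate cultures, so the p-values measure the spread between these libraries, which may be technical.

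Of the 34 genes, 32 passed the filter on low counts and were tested in edgeR by quasi-likelihood, with p-values adjusted after Benjamini and Hochberg over all 15095 genes tested. A gene is said to have risen or fallen at an adjusted p under 0.05. HNRNPH2, which encodes a close relative of hnRNP H1, had 0 counts in every control library and 1, 12 and 5 counts in hyperoside replicates 1, 2 and 3, and was not tested. Its exons also belong to the read-through gene RPL36A-HNRNPH2, and how the authors' counting treated reads shared by both was not tested. Exons of SRSF2, SRSF9, HNRNPA2B1, HNRNPAB, HNRNPH3, HNRNPUL1 and HNRNPU overlap the named genes MFSD11, GATC, CBX3, PHYKPL, RUFY2, TGFB1 and COX20 on the opposite strand. On that strand those of SRSF1, HNRNPA3, HNRNPD, HNRNPK and HNRNPM overlap genes known only by clone names. Whether the authors' counting used strand is not given in the sources used here, so the counts of these 12 genes may hold reads of their partners. On the same strand, exons of SRSF1, HNRNPL and HNRNPA1L2 overlap genes with clone names. Those of SRSF2, HNRNPA3, HNRNPK and SRSF4 overlap MIR636, MIR4444-1, MIR7-1 and RF02271 there. How the counting treated reads shared on the same strand was not tested. HNRNPCL3, a copy of HNRNPC, had 0 counts in all 6 libraries. A count of 0 allows up to 3 counts per library, a limit that covers counting error only.

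Of the 32 tested genes, 15 changed, which is 46.9% of them, beside 45.3% of all tested genes. The share of SRSF and HNRNP genes that changed was thus near that of all genes. By direction, 6 rose (22.1% of all tested genes rose) and 9 fell (23.2% of all tested genes fell). With scaling to library totals the split was 10 higher and 7 lower, and with limma on log2(FPKM + 1) it was 10 higher and 6 lower. The log2 fold changes ran from -0.51 to 0.97 with a median of 0.05, beside a median of 0.00 over all tested genes. The study's additional limit of a 2-fold change was reached by none of the 32 with edgeR under TMM scaling or with DESeq2. With edgeR under TMM scaling 10.2% of all tested genes passed both limits. SRSF3 passed the 2-fold limit with library totals, upper quartile scaling and limma, at log2 fold changes of 1.01 to 1.02. Normalized CPM did not overlap between the groups in 19 of the 32 genes, 59.4%, beside 54.4% of all tested genes.

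**Figure D1:**
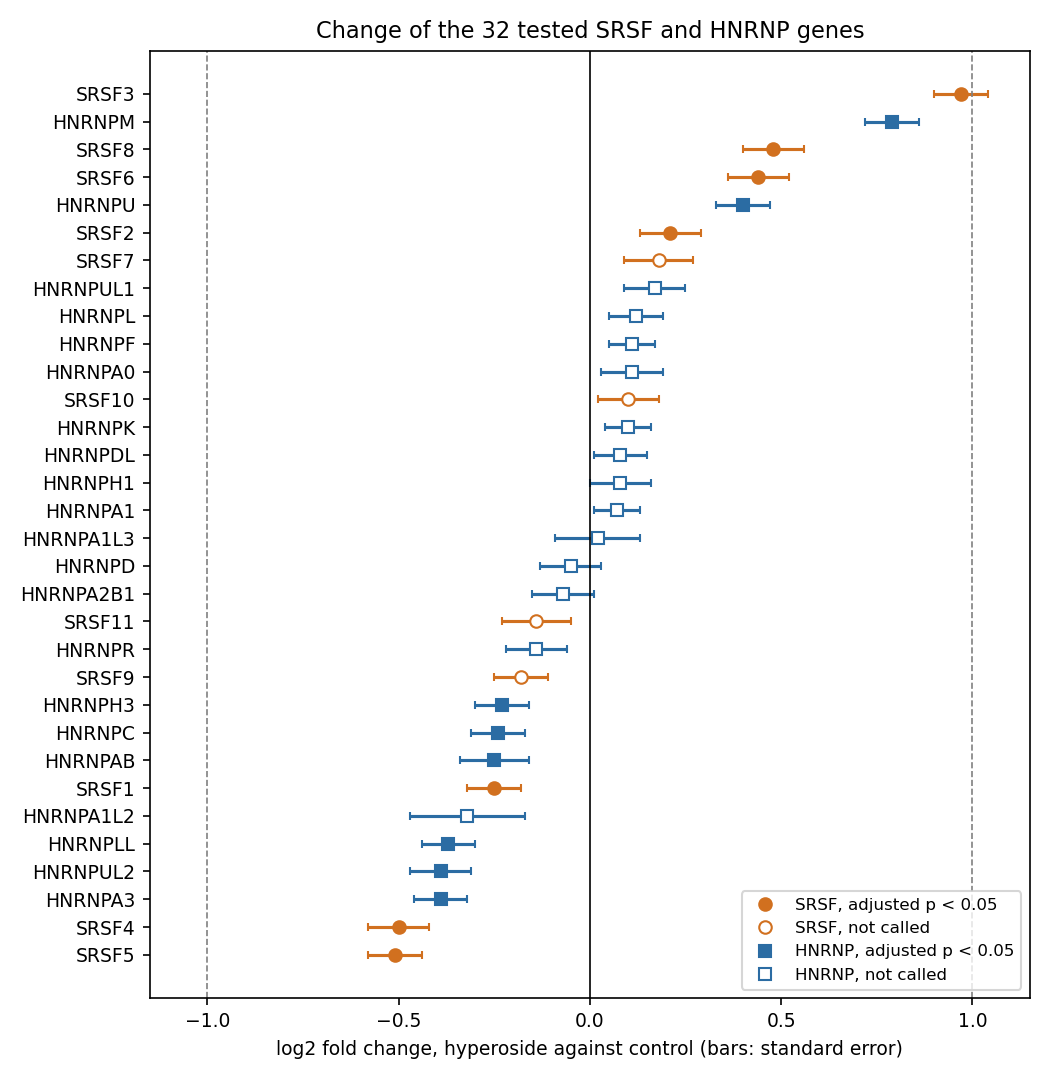
Log2 fold change of each of the 32 tested genes, hyperoside against control, with its standard error as a bar, SRSF genes as circles and HNRNP genes as squares. Filled symbols mark the 15 genes with an adjusted p under 0.05, dashed lines mark a 2-fold change, and SRSF3 at 0.97 and SRSF5 at -0.51 stand at the ends.

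SR protein genes moved in both directions. Of the 11 SRSF genes, all tested, 4 rose and 3 fell, 63.6% in all, with a median log2 fold change of 0.10. Over all tested genes 45.3% changed, 22.1% higher and 23.2% lower. SRSF3, SRSF8, SRSF6 and SRSF2 rose. SRSF5, SRSF4 and SRSF1 fell. The 4 that did not pass the test were SRSF7, SRSF9, SRSF10 and SRSF11.

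SRSF3 encodes the smallest SR protein, which acts in splicing, in mRNA export and in the choice of polyadenylation sites. The gene lies at chr6:36594353-36605600 on the plus strand (GRCh38). SRSF3 stood at 219.9, 212.8 and 210.5 CPM in control replicates 1 to 3 and at 407.3, 444.2 and 410.9 CPM in hyperoside replicates 1 to 3. All 3 hyperoside libraries lay far above all 3 control libraries. The mean was 214.4 ± 4.89 CPM in control and 420.8 ± 20.3 CPM in hyperoside (SD, n = 3 each). The log2 fold change was 0.97 (SE 0.07, edgeR adjusted p = 5.26e-09). This 1.96-fold rise was the largest among the 32 genes. It passed 2-fold with scaling to library totals, at a log2 fold change of 1.02, and with upper quartile scaling, at 1.01.

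SRSF6 encodes a larger SR protein with a pair of RNA recognition motifs and lies at chr20:43457928-43464247 on the plus strand. It had 108.6, 126.7 and 128.7 CPM in the control libraries and 172.9, 168.4 and 151.3 CPM in the hyperoside libraries. The groups did not overlap. The log2 fold change was 0.44 (SE 0.08, edgeR adjusted p = 0.000298). SRSF2, also known as SC35 and mutated in some myeloid neoplasms, had 227.9, 230.2 and 211.0 CPM in control and 252.8, 287.0 and 232.7 CPM in hyperoside. The groups were separated by a narrow gap, and the log2 fold change was 0.21 (SE 0.08, edgeR adjusted p = 0.0412). SRSF2 lost its call without control replicate 2 or 3 or hyperoside replicate 1 or 2, with log2 fold changes of 0.23, 0.17, 0.22 and 0.12 and adjusted p-values of 0.0661, 0.145, 0.0895 and 0.249. Leaving out hyperoside replicate 2, the highest library, thus moved the SRSF2 value by over 1.5 times. SRSF8, a human gene that arose as a retrocopy of SRSF2, rose from a low level, from 34.2 to 36.4 CPM in control to 47.6 to 50.6 CPM in hyperoside, with a log2 fold change of 0.48 (SE 0.08, edgeR adjusted p = 0.000154).

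SRSF5 and SRSF4 fell by similar amounts. SRSF5, an SR protein gene whose product is known as a target of insulin signaling in alternative splicing, lies at chr14:69726900-69772005 on the plus strand. It had 221.9, 244.9 and 216.3 CPM in control and 160.2, 162.4 and 156.7 CPM in hyperoside. The hyperoside libraries were close together and all below the control libraries. The log2 fold change was -0.51 (SE 0.07, edgeR adjusted p = 1.55e-05). SRSF4, which encodes an SR protein with an unusually long arginine and serine rich tail, lies at chr1:29147743-29181987 on the minus strand. It had 224.5, 226.0 and 188.9 CPM in control and 149.4, 155.3 and 146.5 CPM in hyperoside. Control replicate 3 was the lowest control library and still above every hyperoside library. The log2 fold change was -0.50 (SE 0.08, edgeR adjusted p = 4.89e-05).

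SRSF1, the SR protein first described as a factor in the choice of the 5′ splice site, had 314.7, 327.4 and 319.6 CPM in control and 265.5, 297.4 and 246.9 CPM in hyperoside. The groups did not overlap, and the spread was wider in hyperoside. The log2 fold change was -0.25 (SE 0.07, edgeR adjusted p = 0.0117). Without hyperoside replicate 1 or 3 the call was lost, at log2 fold changes of -0.24 and -0.18 and adjusted p-values of 0.0599 and 0.0994, as it was with limma on log2(FPKM + 1) (0.0573) or log2(FPKM + 0.1) (0.0538). SRSF9, the SRSF gene with the highest level per length, had 156.3 to 176.6 CPM in control and 140.4 to 150.6 CPM in hyperoside, with a log2 fold change of -0.18 (SE 0.07) that missed the threshold (edgeR adjusted p = 0.0512). SRSF9 was called lower with DESeq2, at an adjusted p of 0.0404, and without control replicate 3, at 0.0341. SRSF7, whose product holds a zinc knuckle, had a log2 fold change of 0.18 (SE 0.09, edgeR adjusted p = 0.117). SRSF10, which encodes an SR-like protein that represses splicing when dephosphorylated in heat shock, stood at 0.10 (SE 0.08, edgeR adjusted p = 0.348). SRSF11 stood at -0.14 (SE 0.09, edgeR adjusted p = 0.207). The groups of these 3 genes overlapped. Without control replicate 1 SRSF7 was called higher at an adjusted p of 0.0151 and SRSF11 lower at 0.00533, and without hyperoside replicate 3 SRSF7 was called at 0.0344.

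**Figure D2:**
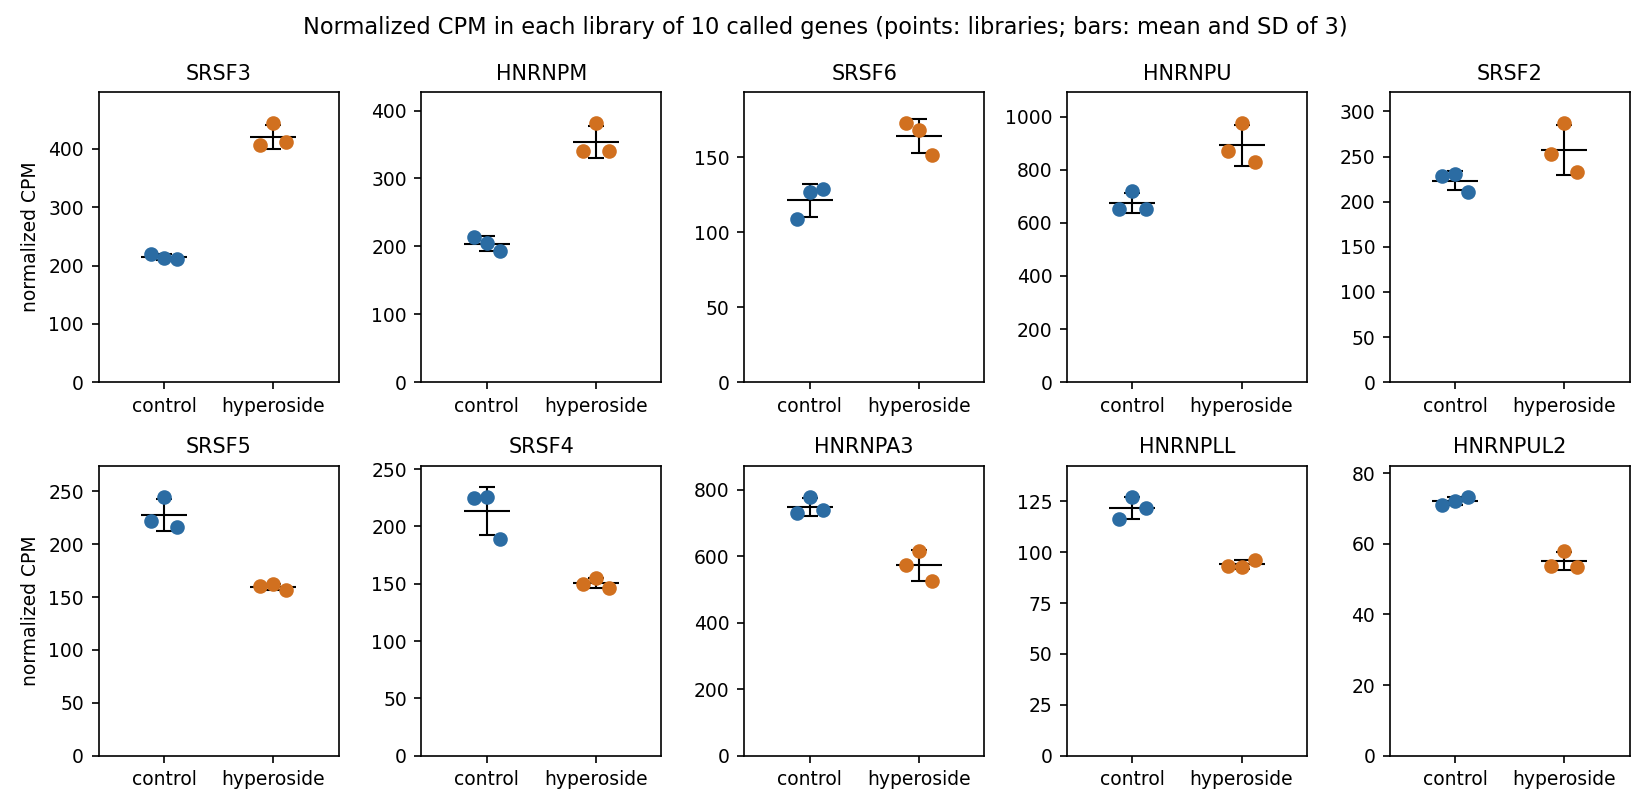
Normalized CPM of 10 genes that changed, in each of 3 control (blue) and 3 hyperoside (orange) libraries, with the mean and SD as bars and each axis starting at 0. The upper row holds 5 genes that rose, SRSF3 to SRSF2, and the lower row 5 that fell, SRSF5 to HNRNPUL2. The groups do not overlap in any of the 10 panels, whose genes were picked for their called changes. Normalized CPM did not overlap in 54.4% of all tested genes. HNRNPAB, which fell with overlapping groups, is not shown.

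Among the HNRNP genes, 21 of 23 were tested, and 2 rose and 6 fell, 38.1% of those tested beside 45.3% of all tested genes, with a median log2 fold change of 0.02. HNRNPM and HNRNPU rose. HNRNPA3, HNRNPUL2, HNRNPLL, HNRNPAB, HNRNPC and HNRNPH3 fell. With scaling to library totals 6 HNRNP genes were higher and 4 lower, and limma on log2(FPKM + 1) gave the same counts.

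HNRNPM encodes a GU-binding hnRNP known for its part in the splicing of CD44 in epithelial to mesenchymal transition, and lies at chr19:8444767-8489114 on the plus strand. It had 214.1, 205.6 and 192.6 CPM in control and 339.9, 381.5 and 340.6 CPM in hyperoside. Every hyperoside library was well above every control library. The mean went from 204.1 ± 10.8 to 354.0 ± 23.8 CPM (SD, n = 3 each), and the log2 fold change was 0.79 (SE 0.07, edgeR adjusted p = 1.39e-07). This 1.73-fold rise was the largest among the HNRNP genes.

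HNRNPU encodes the scaffold attachment factor A, which binds RNA and chromatin, and lies at chr1:244840638-244864560 on the minus strand. It had 653.9, 718.2 and 654.1 CPM in control and 871.3, 975.9 and 827.9 CPM in hyperoside, with no overlap. The log2 fold change was 0.40 (SE 0.07, edgeR adjusted p = 0.000242). The related HNRNPUL2 went the other way. It had 71.1, 72.1 and 73.4 CPM in control and 53.7, 58.1 and 53.5 CPM in hyperoside, with no overlap and a log2 fold change of -0.39 (SE 0.08, edgeR adjusted p = 0.000569). HNRNPUL2 shares exons with the read-through gene HNRNPUL2-BSCL2. HNRNPUL1, whose product acts with that of HNRNPUL2 in the DNA damage response, had 269.3 to 313.0 CPM in control and 301.9 to 337.2 CPM in hyperoside, with a log2 fold change of 0.17 (SE 0.08, edgeR adjusted p = 0.0793). HNRNPUL1 was called higher without control replicate 1, at an adjusted p of 0.00289, with scaling to library totals (0.0161) or the upper quartile (0.0301), and with limma on log2(FPKM + 1) (0.0216) or log2(FPKM + 0.1) (0.0208).

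The A/B group holds the most abundant hnRNPs, which bind UAG-type motifs and often repress exons. Of its 7 tested genes 2 fell, 28.6%, and 5 did not pass the test. Over all tested genes 45.3% changed and 23.2% fell. HNRNPA1, by far the most abundant of the 34 genes, had 3106.5, 3116.4 and 2890.6 CPM in control and 3214.0, 3141.1 and 3206.2 CPM in hyperoside. The hyperoside libraries were all slightly above the control libraries, and the log2 fold change of 0.07 (SE 0.06) did not pass the test (edgeR adjusted p = 0.378). HNRNPA2B1, whose product is also known for the sorting of small RNAs, had 970.2, 1021.6 and 956.1 CPM in control and 921.8, 1054.1 and 834.5 CPM in hyperoside. The hyperoside libraries enclosed all control libraries, and the log2 fold change was -0.07 (SE 0.08, edgeR adjusted p = 0.498).

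HNRNPA3 had 728.5, 779.2 and 738.7 CPM in control and 574.8, 616.0 and 525.2 CPM in hyperoside. All hyperoside libraries were lower, with a log2 fold change of -0.39 (SE 0.07, edgeR adjusted p = 0.000239). HNRNPAB had 292.8, 263.8 and 237.3 CPM in control and 214.2, 250.6 and 201.9 CPM in hyperoside, so that hyperoside replicate 2 lay above control replicate 3. Its log2 fold change was -0.25 (SE 0.09, edgeR adjusted p = 0.0280). The call was lost without control replicate 1 or 2 or hyperoside replicate 1 or 3, at adjusted p-values of 0.0642, 0.061, 0.116 and 0.175, and under 4 of the other alternatives. HNRNPA0, whose product binds AU-rich messages, stood at a log2 fold change of 0.11 (SE 0.08, edgeR adjusted p = 0.266), and at an adjusted p of 0.0194 without control replicate 1. HNRNPA1L2 and HNRNPA1L3 are near-identical copies of HNRNPA1, and their counts of 7.1 to 21.0 CPM are uncertain because reads of HNRNPA1 can be split between them. Their log2 fold changes were -0.32 (SE 0.15, edgeR adjusted p = 0.0798) and 0.02 (SE 0.11, edgeR adjusted p = 0.891).

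HNRNPC, whose product binds uridine tracts and keeps Alu-derived exons out of messages, had 822.6, 794.1 and 747.0 CPM in control and 648.5, 669.3 and 680.1 CPM in hyperoside. Every hyperoside library was below every control library, and the log2 fold change was -0.24 (SE 0.07, edgeR adjusted p = 0.00572). The F/H group binds runs of guanines. HNRNPF had 475.2, 459.8 and 472.9 CPM in control and 510.0, 505.7 and 506.1 CPM in hyperoside. These groups were tight and apart, yet the log2 fold change of 0.11 (SE 0.06) did not pass the test (edgeR adjusted p = 0.158). HNRNPH1 stood at 0.08 (SE 0.08, edgeR adjusted p = 0.423). HNRNPH3 fell, with 227.0 to 245.7 CPM in control and 182.8 to 210.5 CPM in hyperoside and a log2 fold change of -0.23 (SE 0.07, edgeR adjusted p = 0.0165). Without control replicate 2 or hyperoside replicate 3 the HNRNPH3 call was lost, at adjusted p-values of 0.0837 and 0.13, and so it was with scaling to library totals (0.0568) and with limma on log2(FPKM + 1) (0.0638) or log2(FPKM + 0.1) (0.0609).

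HNRNPK, which encodes a poly(C)-binding protein with KH domains, had 707.5, 678.8 and 655.8 CPM in control and 713.2, 753.1 and 722.6 CPM in hyperoside. The groups were just apart, with a log2 fold change of 0.10 (SE 0.06, edgeR adjusted p = 0.219). HNRNPF and HNRNPK were called higher with scaling to library totals, at adjusted p-values of 0.0297 and 0.0371, and with limma on log2(FPKM + 1), at 0.0199 and 0.0316. HNRNPR, a relative of SYNCRIP, stood at -0.14 (SE 0.08, edgeR adjusted p = 0.130), and at adjusted p-values of 0.0318 and 0.0434 without control replicate 1 and without hyperoside replicate 2.

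HNRNPL and HNRNPLL encode related proteins that bind CA repeats, and the latter is known for the splicing of CD45 in T cells. HNRNPL had 400.6, 343.5 and 350.4 CPM in control and 381.1, 404.0 and 402.5 CPM in hyperoside. Control replicate 1 lay among the hyperoside libraries, and the log2 fold change was 0.12 (SE 0.07, edgeR adjusted p = 0.199), with an adjusted p of 0.0111 without that library, 0.0434 with scaling to library totals and 0.0424 and 0.0427 with limma on log2(FPKM + 1) and log2(FPKM + 0.1). HNRNPLL had 116.4, 127.3 and 121.5 CPM in control and 93.2, 92.6 and 96.4 CPM in hyperoside. Its groups were clearly apart, with a log2 fold change of -0.37 (SE 0.07, edgeR adjusted p = 0.000413). The difference between the changes of HNRNPL and HNRNPLL was not tested.

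HNRNPD and HNRNPDL, neighbours on chromosome 4 that encode AU-rich element binding proteins, did not pass the test. HNRNPD had 448.0, 466.2 and 410.5 CPM in control and 412.4, 471.5 and 397.7 CPM in hyperoside. HNRNPDL had 232.0, 260.8 and 247.7 CPM in control and 260.4, 270.0 and 250.3 CPM in hyperoside. The groups overlapped for both genes, with log2 fold changes of -0.05 (SE 0.08, edgeR adjusted p = 0.641) and 0.08 (SE 0.07, edgeR adjusted p = 0.399).

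Per length, the 32 tested genes spanned a 178-fold range of control levels, from 4.47 FPKM for HNRNPA1L2 to 797 FPKM for HNRNPA1, with a median of 68.9 FPKM. HNRNPA1 was followed by HNRNPA2B1 at 261 ± 11.1, HNRNPK at 219 ± 3.16, HNRNPC at 172 ± 4.67 and HNRNPF at 149.9 ± 3.77 FPKM in control (SD, n = 3 each). The control libraries of each of the first 4 did not overlap those of the next in order. HNRNPF, HNRNPAB, HNRNPD, SRSF9, HNRNPL and HNRNPA3, ranks 5 to 10, each overlapped the next in that row. Over all 33 neighbouring pairs in the order of all 34 genes, 17 overlapped. Among these was the pair of the untested HNRNPCL3 and HNRNPH2, both at 0 FPKM in control. With hyperoside the order at the top stayed HNRNPA1, HNRNPA2B1 and HNRNPK, at 866 ± 13.3, 257 ± 31.2 and 243 ± 6.84 FPKM. HNRNPM moved from rank 17 to rank 11, at 63.9 ± 1.996 and 115 ± 7.79 FPKM, and SRSF3 from rank 21 to rank 14, at 49.8 ± 0.115 and 101 ± 4.91 FPKM. SRSF5 and SRSF4 moved from ranks 13 and 14 to ranks 17 and 18.

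**Figure D3:**
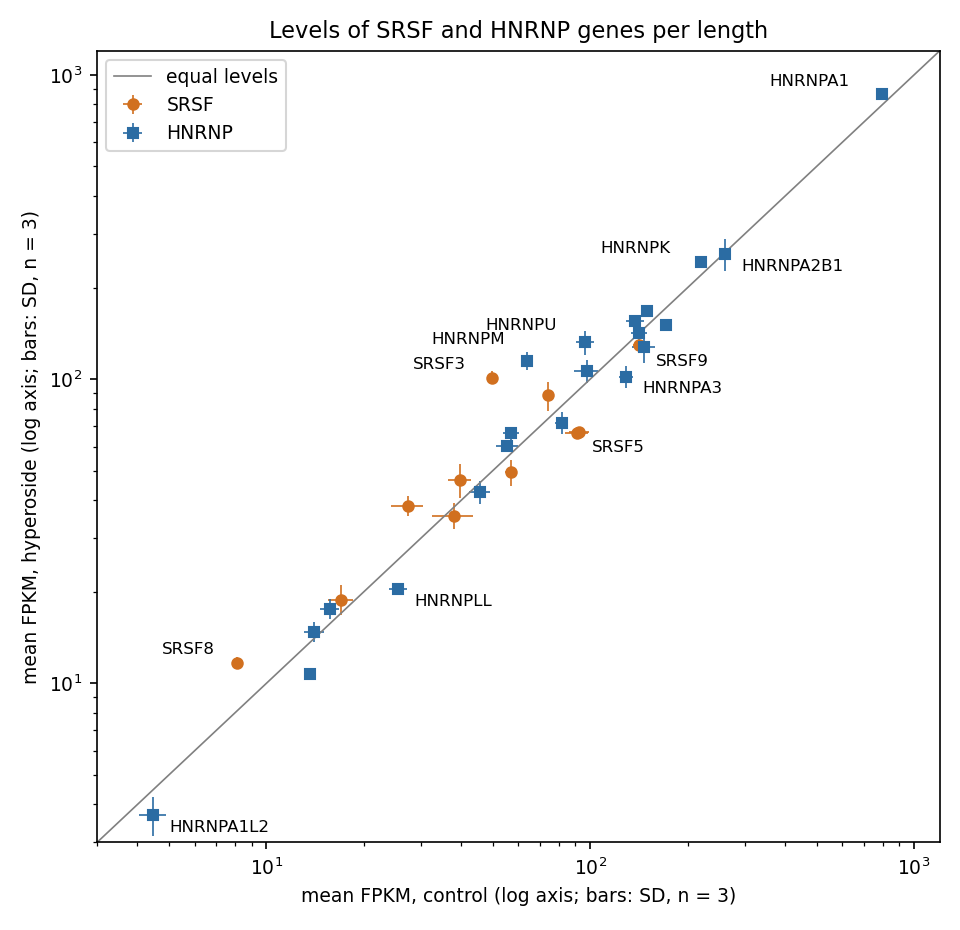
Mean FPKM in control (x axis) against mean FPKM in hyperoside (y axis), both logarithmic, for the 32 tested genes, with the SD over 3 libraries as bars and a line of equal levels. SRSF3, HNRNPM and HNRNPU stand above the line, SRSF5 and HNRNPA3 below it, and HNRNPA1 at the top right lies near the line at 797 and 866 FPKM.

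Summed over the SRSF or the HNRNP genes, the levels of both groups of libraries overlapped. The SRSF genes together gave 626, 659.6 and 621 FPKM in control replicates 1 to 3 and 653, 686 and 620.0 FPKM in hyperoside replicates 1 to 3. The log2 difference was 0.04 (two-sided exact permutation p = 0.7). The HNRNP genes together gave 2706, 2795 and 2673 FPKM in control and 2869, 2983 and 2765 FPKM in hyperoside, with a log2 difference of 0.08 (exact permutation p = 0.2). FPKM are scaled to library totals without TMM. With CPM in place of FPKM the log2 difference was 0.06 for the SRSF sum and 0.03 for the HNRNP sum. The ratio of SRSF1 to HNRNPA1, proteins known to oppose each other at competing 5′ splice sites, was 0.0684, 0.0709 and 0.0747 in control and 0.0558, 0.0640 and 0.0520 in hyperoside. Every hyperoside library had a lower ratio than every control library, and the mean went from 0.0714 ± 0.00314 to 0.0573 ± 0.0061 (SD, n = 3 each), a log2 difference of -0.32. Its exact permutation p was 0.1, the smallest that 3 libraries against 3 can give. After Benjamini-Hochberg adjustment over these 3 tests the exact permutation p-values were 0.7, 0.3 and 0.3.

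The make-up of the summed SRSF level differed between control and hyperoside. SRSF3 held 7.84 ± 0.266% of the summed SRSF FPKM in control and 15.5 ± 0.354% in hyperoside (SD, n = 3 each). SRSF9 held the largest share in both groups, 22.2 ± 1.07% and 19.8 ± 1.26%. SRSF5 went from 14.6 ± 0.585% to 10.3 ± 0.302%, and SRSF4 from 14.3 ± 0.898% to 10.2 ± 0.174%. SRSF2 held 11.6 ± 0.122% and 13.5 ± 0.801%. Shares sum to the whole, so a larger share of SRSF3 lowers the others. Among the HNRNP genes HNRNPA1 held 29.2 ± 0.237% in control and 30.2 ± 1.38% in hyperoside. HNRNPM went from 2.35 ± 0.0589% to 3.99 ± 0.141%, and HNRNPA3 from 4.73 ± 0.192% to 3.54 ± 0.168%.

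**Figure D4:**
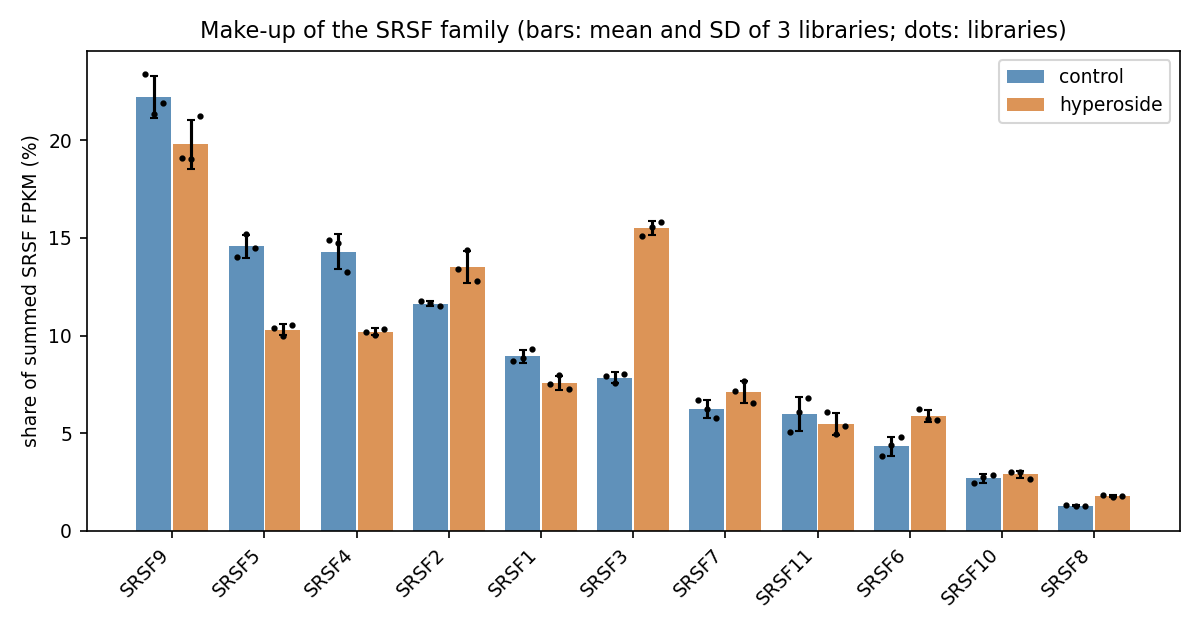
Share of each SRSF gene in the summed SRSF FPKM of a library, in percent, as means with SD over 3 control (blue) and 3 hyperoside (orange) libraries, with the libraries as dots. SRSF3 goes from 7.84% to 15.5%, and SRSF5 and SRSF4 from 14.6% and 14.3% to 10.3% and 10.2%.

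Libraries of the same group differed in a shared way over these genes. Hyperoside replicate 2 had the highest CPM of its group in 22 of the 32 genes, 68.8%, beside 34.5% of all tested genes. Hyperoside replicate 3 had the lowest in 21 genes, 65.6%, beside 32.9% of all tested genes. In control, replicate 3 was lowest in 17 genes, 53.1%, beside 35.1% of all tested genes, and replicate 2 was highest in 15 genes, 46.9%, beside 27.9%. Over these genes the libraries numbered 2 were thus most often the highest and those numbered 3 most often the lowest in both groups, while control replicate 1 was highest in 13 genes and lowest in 11 and hyperoside replicate 1 highest in 7 and lowest in 8. The coefficient of variation of CPM within a group ran from 1.59% for HNRNPUL2 to 12.4% for SRSF11 in control, with a median of 5.79%. In hyperoside it ran from 0.470% for HNRNPF to 13.9% for HNRNPA1L2, with a median of 7.17%. SRSF and HNRNP genes of a library are not independent, and no cause of the shared deviations was tested.

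Promoters are shown for 3 of the genes that rose and 1 that fell, to set the region upstream of their starts side by side. Each line gives the part of the 250 bases before the RefSeq start that lies in no annotated exon, 5′ to 3′ on the strand of the gene, from RefSeq on GRCh38.p14. The windows of HNRNPM and SRSF5 lie wholly in annotated exons and are not printed. Capitals mark matches on either strand to 6 motifs, namely the CCAAT box (CCAAT), the GC box (GGGCGG), the E-box (CACGTG), the TATA box (TATAAA), the CRE core site (TGACGT) and an ETS site (CCGGAAG). SRSF3 spans chr6:36594112-36594352 on the plus strand, HNRNPU chr1:244864561-244864737 on the minus strand, SRSF6 chr20:43457646-43457895 on the plus strand and SRSF4 chr1:29181988-29182150 on the minus strand.
SRSF3: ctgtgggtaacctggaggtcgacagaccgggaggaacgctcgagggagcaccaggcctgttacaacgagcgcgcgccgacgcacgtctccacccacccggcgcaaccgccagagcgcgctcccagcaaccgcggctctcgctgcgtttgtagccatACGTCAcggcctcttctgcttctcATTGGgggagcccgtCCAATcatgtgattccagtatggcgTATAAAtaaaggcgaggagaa
HNRNPU: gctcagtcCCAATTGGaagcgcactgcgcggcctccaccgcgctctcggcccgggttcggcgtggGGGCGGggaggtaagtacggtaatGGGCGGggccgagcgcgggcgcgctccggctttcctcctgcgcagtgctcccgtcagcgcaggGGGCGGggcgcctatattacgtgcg
SRSF6: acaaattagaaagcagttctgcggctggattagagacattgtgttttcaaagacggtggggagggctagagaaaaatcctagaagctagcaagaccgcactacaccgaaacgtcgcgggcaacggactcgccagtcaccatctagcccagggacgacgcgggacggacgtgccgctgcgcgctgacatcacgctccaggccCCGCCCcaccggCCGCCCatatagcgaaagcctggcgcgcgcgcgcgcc
SRSF4: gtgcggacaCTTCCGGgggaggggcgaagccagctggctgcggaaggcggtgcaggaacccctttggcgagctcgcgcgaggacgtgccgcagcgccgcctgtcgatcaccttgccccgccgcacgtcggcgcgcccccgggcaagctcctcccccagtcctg

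The SRSF3 sequence held CCAAT box matches that begin 70 and 55 bases before the start, a TATA box match at 30 bases and a CRE core site match at 94 bases. HNRNPU held CCAAT box matches on both strands that overlap each other, beginning 186 and 183 bases before the start, and GC box matches at 129, 105 and 42 bases. SRSF6 held GC box matches at 49 and 37 bases, and SRSF4 an ETS site match at 241 bases. Over the whole windows of 44 promoters of 30 SRSF and HNRNP genes, 47.7% held a CCAAT box, beside 32.01% of 35116 promoters of all genes. For the GC box these shares were 59.1% and 42.6%, for the E-box 15.9% and 6.34%, for the TATA box 13.6% and 10.7%, for the CRE core site 13.6% and 7.10%, and for the ETS site 11.4% and 8.52%. Several of the 44 promoters belong to the same gene and overlap, and a match is a description of the letters only.

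The genes around these regulators were counted in 8 lists of splicing factors and related proteins, which held 148 tested genes. Of these 24 rose and 38 fell, 41.9% in all, beside 45.3% of all tested genes, with a median log2 fold change of -0.02. The kinases and other proteins that modify or import SR proteins and hnRNPs moved both ways, with 4 of 15 higher and 4 lower, 53.3% in all beside the 45.3% of all tested genes. The SR protein kinase gene SRPK1 fell (log2 fold change -0.33), as did CLK3 (-0.33) and CLK1 (-0.30), which encode nuclear kinases of SR proteins, whereas CLK2 of the same family rose (0.26, edgeR adjusted p = 0.0245) and CLK4 stood at 0.08 (edgeR adjusted p = 0.689). DYRK1A (0.89, edgeR adjusted p = 1.03e-07) and DYRK1B (0.68), kinase genes of a related family, rose, as did PPP1R8 (0.28), a nuclear regulator of protein phosphatase 1. SRPK2 stood at -0.01.

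Of 28 SR-related genes, whose products carry arginine and serine rich stretches outside the SRSF family, 5 rose and 10 fell, 53.6% in all beside 45.3% of all tested genes. LUC7L3, a relative of a yeast U1 snRNP protein, fell from 391.5, 430.7 and 398.6 CPM in control to 224.8, 215.7 and 203.1 CPM in hyperoside (log2 fold change -0.92, SE 0.07, edgeR adjusted p = 1.56e-08). ARGLU1 (-0.72) and PNN (-0.69) also fell, and SCAF8 (0.51), ACIN1 (0.33) and LUC7L2 (0.29) rose. Among 24 tested hnRNP-type genes under other symbols, 4 rose and 4 fell, 33.3% in all, with RBM3 (0.43) and PTBP1 (0.32) among those higher and TARDBP (-0.42), ELAVL1 (-0.39) and FUBP1 (-0.38) lower.

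Over all tested genes 22.1% rose and 23.2% fell, and the counts of the following lists are to be read beside these shares. Of 12 tested genes for U1, Sm and 2 of the U2 snRNP proteins, 7 fell (58.3%) and 5 did not pass the test, with a median log2 fold change of -0.22. SNRPA1 (-1.01), SNRPA (-0.86) and SNRNP70 (-0.76) changed most, the first a U2 protein and the others U1 proteins. SNRPA1 was at 119.4, 109.2 and 101.0 CPM in control and 53.5, 56.5 and 53.3 CPM in hyperoside, and it alone among the 148 genes passed a 2-fold change (edgeR adjusted p = 2.82e-08). Of 15 U4/U6.U5 proteins 4 fell (26.7%) and 11 did not pass the test, led by SART3 (-0.40), USP39 (-0.37) and TXNL4A (-0.30). Of 18 genes for recognition of the 3′ splice site, 4 rose and 3 fell, with SF3B4 (0.54), SF1 (0.46) and SF3B3 (0.30) higher and ZRSR2 (-0.65), SF3B6 (-0.38) and SF3B2 (-0.18) lower. Of 19 tested tissue splicing regulators, 3 rose, CELF2 (0.55), ZFP36L1 (0.38) and KHDRBS1 (0.23), and 4 fell, among them MBNL2 (-0.58), RBM14 (-0.50) and RBM6 (-0.33). For nonsense-mediated decay, which degrades poison exon transcripts of the SRSF genes, 4 of 17 rose and 2 fell, with SMG8 (0.61), DHX34 (0.40) and UPF3A (0.22) higher and UPF1 (-0.25) and SMG5 (-0.24) lower.

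**Figure D5:**
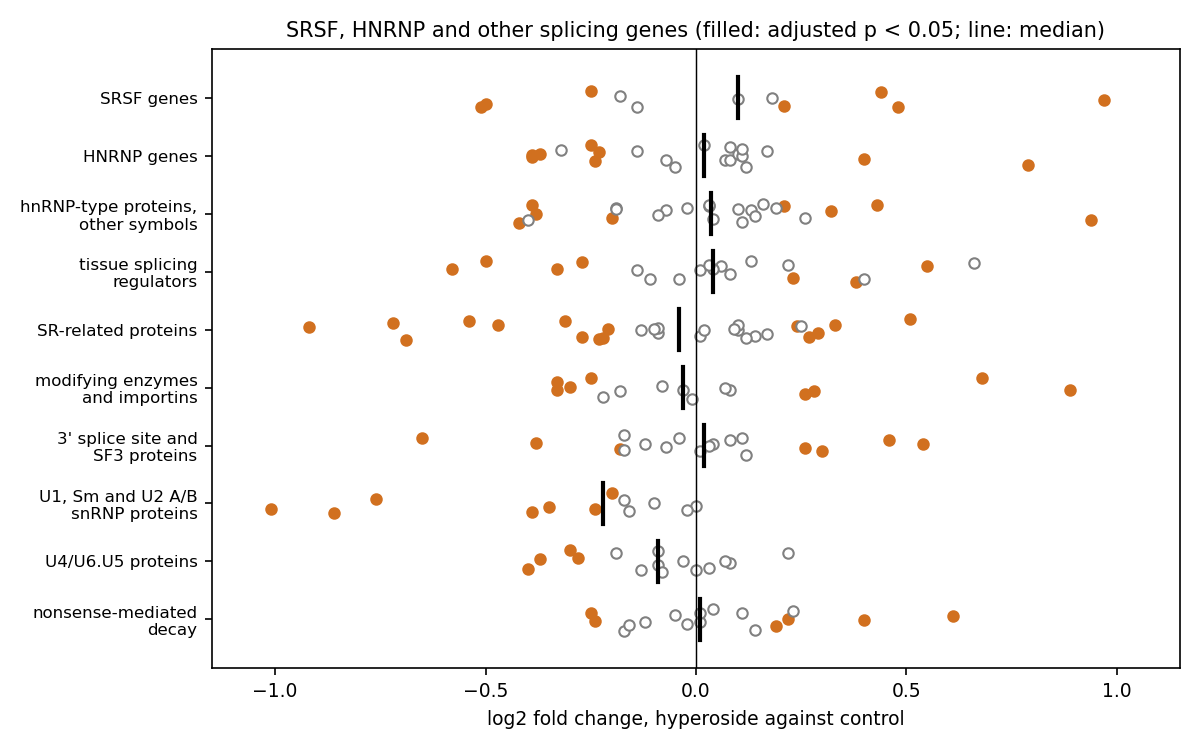
Log2 fold change of each tested gene, hyperoside against control, for the SRSF genes, the HNRNP genes and 8 lists of other splicing genes, with filled points at an adjusted p under 0.05 and a bar at the median. SRSF and HNRNP genes lie on both sides of 0, with medians of 0.10 and 0.02, and the U1, Sm and U2 A/B list has a median of -0.22.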

How the data were processed

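RNA of K562 cells was sequenced in 3 control and 3 hyperoside libraries, grouped by their labels. The authors deposited raw counts per gene and FPKM values, which divide the same counts by gene length and library total. Per the labels, fastp, HISAT2 and HTSeq were used with hg38. Their versions, the annotation behind the counts and the use of strand are not given in the sources used here. Raw counts of all 24960 genes were fitted by edgeR 4.0.16 in R 4.3.3 (filterByExpr with a minimum count of 10 and minimum total of 15, TMM, quasi-likelihood test on condition alone), and p-values were adjusted by Benjamini-Hochberg over 15095 tested genes. The study names the DESeq package; DESeq2 1.42.0 and limma 3.58.1 served as alternatives, beside other scalings, no filter, a block for the replicate number and leaving out each library. A standard error is the log2 fold change divided by the square root of F. The edgeR fit was tried on simulated counts in which few genes changed, each by 2-fold, with a common dispersion for all genes. That setting differs from these data, in which 45.3% of tested genes were called. Sums and a ratio of FPKM were compared by two-sided exact permutation tests on log2 values.

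Positions and exon overlaps are from GENCODE 29 on GRCh38, and promoters from RefSeq. The members and the lists were chosen with earlier results of these data known. Values in each library are given for the called genes with the largest and the smallest log2 fold change, up to 6 each, at a mean of at least 10 FPKM. They are also given for the 5 with the highest FPKM, SRSF1, HNRNPA1, HNRNPL, HNRNPLL, HNRNPD and HNRNPDL. From each list the rule takes up to 3 genes called in each direction with the largest change. Of these, LUC7L3 and SNRPA1 are given with values in each library and the others by log2 fold change. A gene that this rule takes is not reported here. Other columns of the deposited tables, which hold gene annotation, were not used here beyond symbols and gene type. Tables and plots were made in Python 3.11.15 with pandas 2.3.3, numpy 2.4.6 and matplotlib 3.10.9.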

Additional observations from a re-analysis of the deposited data

How the results depend on the processing

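Over 14 alternatives, the count of SRSF and HNRNP genes called stayed within 1.5 times of 15, at 14 to 17 with other scalings, tests, filters or the replicate block and at 12 to 20 with a library left out. Of the 15 called genes, 11 kept direction and call in all 14 alternatives, and HNRNPAB, HNRNPH3, SRSF1 and SRSF2 lost the call in at least 1. Of the 17 others, 9 gained a call in at least 1. The sign changed for 3 uncalled genes. HNRNPA1L3 went to -0.02 without control replicate 2, control replicate 3 or hyperoside replicate 2, in a range of -0.02 to 0.10 with a library left out. HNRNPA2B1 went to 0.02 without hyperoside replicate 3 (range -0.16 to 0.02), and HNRNPD to 0.00 (above 0) with library totals and 0.01 without hyperoside replicate 3 (range -0.12 to 0.01). Over all tested genes, same-numbered control and hyperoside libraries did not deviate together (correlations of -0.081, -0.033 and -0.034), so the numbers were not taken to pair them, although over the 32 genes the libraries numbered 2 were often highest and those numbered 3 often lowest in both groups. With the replicate block 6129 genes were called in place of 6841, and 14 of the 32, with SRSF2 at an adjusted p of 0.0647, and 52 genes of the 8 lists were called in place of 62. The ratio of SRSF1 to HNRNPA1 kept a log2 difference of -0.40 to -0.26 with a library left out. Gene counts do not resolve isoforms, and 3 libraries per group limit small changes. HNRNPH2 and HNRNPCL3 had too few counts to be tested, and the reason for their low counts was not tested.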

Other observations

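One gene of these names is listed as non-coding and was left out by the rule. HNRNPD-DT, the divergent transcript next to HNRNPD, had 90, 90 and 55 counts in the control libraries and 46, 10 and 48 counts in the hyperoside libraries. Its log2 fold change was -1.22 (SE 0.44, edgeR adjusted p = 0.0301), beside -0.05 for HNRNPD itself. It was named after its values were seen.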
